A study of Homo sapiens with 8 samples.

Results

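The genes described here are a chosen list of 9 from the MHC class I antigen presentation pathway. They include the heavy chains *HLA-B*, *HLA-C* and *HLA-E*, the light chain *B2M*, and the peptide transporter subunits *TAP1* and *TAP2*. The remaining members are the loading factor *TAPBP*, the immunoproteasome subunit *PSMB9* and the class I transactivator *NLRC5*. The arrays also cover other genes of the pathway, among them further heavy chains, which were counted from a separate list. Members were taken by gene name from all probes that are not controls, which gave 9 genes of the 34423 gene names on the array, with 17 probes of 60 bases each. Of these probes 15 were tested, and each of the 9 genes had at least 1 probe above background on all 8 arrays. Of the other 2 probes, a *TAPBP* probe was below background on all 8 arrays and a *NLRC5* probe was above it on 1 array.

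Expression was measured in HCT116, a mismatch repair deficient human colorectal cancer line, on one-color arrays with 4 groups of 2. The groups were control clones without treatment (CONT1 and CONT2), stable *TET1* knockdown clones without treatment (TET1-KD1 and TET1-KD2), and both kinds of clone after 1 µM 5-aza-dC for 72 h. 5-aza-dC (5-aza-2'-deoxycytidine) is a nucleoside analog that inhibits DNA methyltransferases, and *TET1* encodes an enzyme that oxidizes 5-methylcytosine. The knockdown clones carry a plasmid with an artificial miRNA against *TET1* and the control clones the same plasmid with a negative-control miRNA, and all were isolated as colonies under G418. The 2 arrays of a group come from 2 clones, so the p-values measure the spread between single clones and a clone's own features cannot be told apart from the knockdown.

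Class I molecules display peptides from inside the cell to cytotoxic T cells. Peptides are cut by the proteasome, whose immunoproteasome form carries PSMB9, are moved into the endoplasmic reticulum by the TAP1-TAP2 transporter, and are loaded with the help of tapasin, the product of *TAPBP*, onto a heavy chain paired with beta-2 microglobulin. Interferon gamma raises the whole set of genes, in part through IRF1, and NLRC5 acts at the promoters of the heavy chain, *B2M*, *TAP1* and *PSMB9* genes. Loss of this presentation is a known route by which colorectal cancers with mismatch repair deficiency escape T cells.

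A conflict in the labels and a difference between slides bear on every value below. The titles give each clone without and with 5-aza-dC and were followed, but a separate treatment field gives mock for all control arrays and 5-aza-dC for all knockdown arrays. The file headers place 6 arrays on the first slide and both treated control arrays on a second slide, which was scanned 230 days later. For the response of the control clones, and for the difference in response, slide and treatment therefore cannot be told apart, whereas the response of the knockdown clones and the comparison of untreated clones lie within the first slide. The 7 spike-in controls above background on all arrays were lower on the second slide by between 0.04 and 1.00 in unscaled log2 intensity. The fall was smaller for bright spike-ins. At first-slide means of 9.362, 11.13, 15.28 and 18.07 the differences were -1.004, -0.597, -0.278 and -0.038. In the untreated control clones *HLA-B* and *HLA-C* averaged 14.77 and 15.97 (log2 of the scaled intensity), and *PSMB9* and *NLRC5* 10.49 and 6.81. The part of brightness in the members' changes was not tested beyond the fit on the spike-in scale. No spot was saturated, and between 29490 and 34276 spots per array were above background.

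The cells showed the markers of colonic epithelium, with 6 of 7 genes above background on all 8 arrays and *VIL1* above it on 2. Leukocyte markers were read because leukocytes carry much class I RNA, though every sample is a cultured clone of 1 cell line. Of 7, *CD14*, *ITGAM* and *PTPRC* were above background on all 8 arrays and *MS4A1* and *NKG7* on none. Their summed scaled intensity without treatment was 169 and 220 for the control pair and 153 and 182 for the knockdown pair, and with 5-aza-dC it was 1490 and 1730 for the former and 438 and 882 for the latter. Their summed level was thus higher in the treated clones of both kinds. In these cultures it is a level of marker RNA and not a count of leukocytes, and its relation to the results was not tested. Of 5 fibroblast markers *COL1A1* alone was above background on all arrays, and of 3 endothelial markers none was. The probe of *TET1* with the brightest signal read 9.70 and 9.75 in CONT1 and CONT2 and 8.65 and 9.41 in TET1-KD1 and TET1-KD2 without treatment (log2 of the scaled intensity). Both knockdown clones were below both control clones, and the difference of -0.69 (SE 0.289) did not pass the test (limma, adjusted p = 0.61). A second *TET1* probe differed by -0.98 (adjusted p = 0.585), and another was below background in the knockdown clones. Taking the lowest signal above background as its level there, it was at least 1.2-fold lower in them (limma adjusted p = 0.37).

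Promoter sequences are shown first because 5-aza-dC acts on DNA and because the promoters hold different sets of regulatory motifs. RefSeq windows of 300 bases (250 before to 50 after a gene's start, build GRCh38.p14) were matched for 7 of the 9 members, with 2 windows for *TAP1*; *HLA-E* and *NLRC5* had no entry in the table. Both strands were searched for the interferon-stimulated response element (ISRE, 2 copies of GAAA with any 2 bases between), the NF-kB site (GGG and TTCCC with any 2 bases between), CCAAT (Y box) and TGANGTCA (X2 box or CRE). The stretches below run 5′ to 3′ on the strand of the gene, end before its start, and carry the matched bases in capitals.
HLA-B, chr6:31357223-31357364, minus strand: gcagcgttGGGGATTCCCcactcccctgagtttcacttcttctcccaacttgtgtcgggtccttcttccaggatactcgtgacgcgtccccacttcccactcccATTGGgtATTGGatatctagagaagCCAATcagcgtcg
B2M, chr15:44711365-44711480, plus strand: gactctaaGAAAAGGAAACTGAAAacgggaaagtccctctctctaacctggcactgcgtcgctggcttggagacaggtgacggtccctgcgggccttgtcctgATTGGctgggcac
TAP1, chr6:32853815-32853954, minus strand: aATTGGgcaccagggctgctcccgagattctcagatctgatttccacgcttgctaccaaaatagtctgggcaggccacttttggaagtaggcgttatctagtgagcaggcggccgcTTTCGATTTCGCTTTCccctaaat
TAP2, chr6:32838780-32838805, minus strand: ggggaagcGAAAGCGAAAgctgcccg
TAPBP, chr6:33314079-33314106, minus strand: ctttggagGAAAGTGAAAGTGAAAggag

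The ISRE letters were held by 4 members (*B2M*, *TAP1*, *TAP2* and *TAPBP*), against 3.57% of 35116 windows of all genes. In *B2M*, *TAP1* and *TAPBP* a pair of overlapping matches was found, and in *TAP2* a single one, 58 bases before the start. The NF-kB letters were held by *HLA-B* alone among the members, 177 bases before its start, against 2.17% of all windows. CCAAT was held by 5 members (*HLA-B*, *HLA-C*, *B2M*, *TAP1* and *PSMB9*) and by 34.6% of all windows, and TGANGTCA by no member window and by 7.72% of all. *TAP1* and *PSMB9* start 488 bases apart and are read in opposite directions on chromosome 6, and the window of *PSMB9* held no ISRE letters. The windows held between 11 and 26 CpG dinucleotides, against a median of 14 over all windows, with the most in *PSMB9* and the fewest in a *TAP1* window. These matches describe letters in a window and say nothing of binding or of methylation, which was not measured here.

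The response of the control clones asks which class I genes changed when DNA methylation was inhibited. Here *HLA-B*, which encodes a classical heavy chain, rose (though on the spike-in scale of the first slide its change turned to -0.09, and as the mean of its 3 probes to -0.10), *PSMB9* and *NLRC5* fell, and the remaining 6 members did not pass the test. Thus 3 of 9 members were called at an adjusted p below 0.05, against 41.8% of the 19688 genes tested. In this comparison 20.5% of genes were called up (members 1 of 9) and 21.3% down (members 2 of 9), so the share of members called was not above that of all genes. The members had a median log2 fold change of -0.24, against -0.05 over all genes. In bulk RNA of a clone, a change in all cells and a change in some of the cells cannot be told apart.

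The heavy chains and the light chain came first in the order of roles. *HLA-B* read 14.79 and 14.74 in CONT1 and CONT2 without treatment and 15.25 and 15.49 with 5-aza-dC. The treated arrays were above the untreated ones, with a log2 fold change of 0.60 (SE 0.181, limma adjusted p = 0.0384). *HLA-C*, the other classical heavy chain of the set, read 16.03 and 15.91 without and 16.41 and 16.60 with treatment. Its change of 0.53 (SE 0.175, limma adjusted p = 0.0527) did not pass the test. *HLA-E*, a heavy chain known for presenting leader peptides of other class I molecules to natural killer cells, read 13.93 and 13.90 without and 13.77 and 13.80 with treatment, a change of -0.13 (SE 0.18). *B2M* read 13.81 and 14.12 without and 13.90 and 14.33 with treatment, and its groups overlapped.

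Of the 4 members that supply and load peptides, *PSMB9* fell and *TAP1*, *TAP2* and *TAPBP* did not pass. *PSMB9* read 10.39 and 10.59 in the untreated and 8.47 and 8.99 in the treated control clones. Both treated arrays were far below both untreated arrays, a fall of 3.4-fold (log2 fold change -1.76, SE 0.407, limma adjusted p = 0.0163). *TAPBP* read 12.14 and 12.02 without and 11.14 and 11.43 with treatment, and *TAP2* read 10.26 and 10.44 without and 9.74 and 10.00 with treatment. Neither gene passed the test (-0.79, adjusted p = 0.119, and -0.48, adjusted p = 0.0815). *TAP1* read 12.24 and 12.29 without and 11.91 and 12.14 with treatment, a change of -0.24 (SE 0.165, adjusted p = 0.281). The transactivator *NLRC5* read 6.95 and 6.67 without and 5.99 and 5.82 with treatment. It fell in both clones, with a log2 fold change of -0.90 (SE 0.179, adjusted p = 0.0095).

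With the clone as a block, *HLA-C* (adjusted p = 0.0416), *TAP2* (adjusted p = 0.0334) and *TAPBP* (adjusted p = 0.0421) passed as well, so 6 of 9 members were called. By that fit 13746 of the 27287 probes tested were called, against 11402 without the block. None of the 9 was called when each clone's trend on probe GC content was removed by a robust loess, where *HLA-B* changed by 0.50, *PSMB9* by -1.20 and *NLRC5* by -0.34. With the ordinary loess, which also shifted the median of all probes, 3 members were called down and none up, and *HLA-B* changed by 0.15 (adjusted p = 0.542) and *NLRC5* by -0.53 (adjusted p = 0.0589). On the spike-in scale of the first slide 6 members were called down (*HLA-E*, *TAP1*, *TAP2*, *TAPBP*, *PSMB9* and *NLRC5*). On that scale 12634 of all probes were called in either direction. The calls also rested on single arrays. *HLA-B* lost its call without any 1 of the 4 control arrays (adjusted p between 0.0627 and 0.159), *PSMB9* without untreated CONT1, untreated CONT2 or treated CONT1 (0.061, 0.0801 and 0.0812), and *NLRC5* without untreated CONT1 or treated CONT2 (0.0669 and 0.0501).

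**Figure D1:**
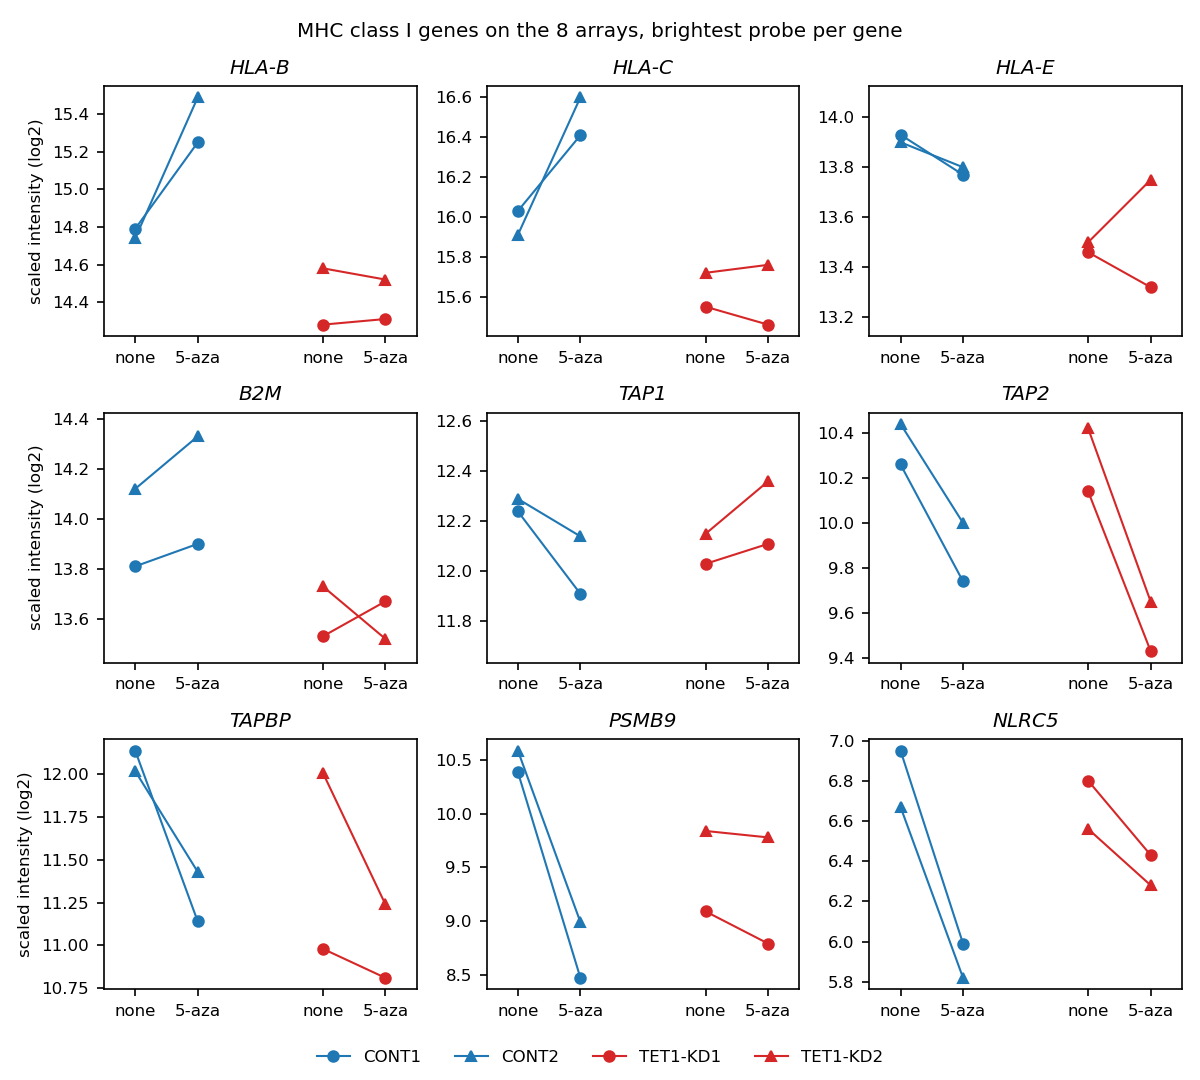
Log2 of the scaled intensity (y axis, a separate range per gene) of the brightest probe of each member on the 8 arrays, without treatment and after 5-aza-dC. Each symbol is 1 array and a line joins the 2 arrays of a clone; *PSMB9* and *NLRC5* fall in both control clones and *HLA-B* and *HLA-C* rise in both, though on the spike-in scale of the first slide *HLA-B* turns to -0.09 and *HLA-C* to -0.23.

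In the *TET1* knockdown clones the same treatment, measured within 1 slide, called none of the 9 members by limma. Here 12.5% of all genes were called (9.45% up and 3.09% down), and 1 member, *TAP2*, had an unadjusted p below 0.05; the methods' t-test, which takes each probe's own variance, called none either. The 9 estimates lay between -0.74 and 0.14, with a median of -0.03 against -0.06 over all genes. *TAP2*, the transporter subunit, had the largest change of the 9. It read 10.14 and 10.42 in the untreated and 9.43 and 9.65 in the treated clones, and the treated arrays were below the untreated ones in both clones. The change was -0.74 (SE 0.186, limma adjusted p = 0.0535). With the clone as a block *TAP2* passed (adjusted p = 0.0317), and with the trend on probe GC removed by the robust loess it did not (-0.61, adjusted p = 0.104). The ordinary loess, which shifted the median of all probes from -0.07 to -0.31, called 1 of the 9 members down in these clones. Together with the block it called 2 down.

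None of the other members passed in these clones. *HLA-B* read 14.28 and 14.58 without and 14.31 and 14.52 with treatment, a change of -0.01 with a 95% interval from -0.45 to 0.43. *HLA-C* read 15.55 and 15.72 without and 15.46 and 15.76 with treatment, a change of -0.03 with an interval from -0.45 to 0.40. For both classical heavy chains the groups overlapped. *PSMB9* read 9.09 and 9.84 without and 8.79 and 9.78 with treatment, where the 2 clones differed from each other by more than either changed. *TAPBP* read 10.98 and 12.01 without 10.81 and 11.24 with treatment, and here too the groups overlapped. Its change was -0.47 (95% interval from -1.33 to 0.39), -0.17 in TET1-KD1 and -0.77 in TET1-KD2, and -0.99 without untreated TET1-KD1 or 0.05 without untreated TET1-KD2. *NLRC5* was lower after treatment in both clones, at 6.80 and 6.56 without and 6.43 and 6.28 with 5-aza-dC, but the change of -0.32 (SE 0.179, adjusted p = 0.305) did not pass. The estimates for *HLA-E*, *B2M* and *TAP1* lay between -0.03 and 0.14.

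The comparison of untreated clones asks what *TET1* knockdown alone did, and it also lies within 1 slide. No member was called by limma, where 0.0203% of all genes were (4 genes), and 1 member, *PSMB9*, had an unadjusted p below 0.05, as did 1619 of all genes. The methods' t-test called no member. All 9 estimates were below 0, with a median of -0.34 against 0.01 over all genes, of which 48.4% were below 0. Single arrays turned 2 of the smallest of these, *TAP2* to 0.07 without TET1-KD1 and 0.02 without CONT2, and *NLRC5* to 0.01 without CONT1. Without TET1-KD1 the difference of *TAPBP* was -0.07 in place of -0.58 and that of *PSMB9* -0.65 in place of -1.03. For 7 of the 9 members (*HLA-B*, *HLA-C*, *HLA-E*, *B2M*, *TAP1*, *TAPBP* and *PSMB9*) both knockdown arrays were below both control arrays, as was the case for 22.3% of all genes. TET1-KD1 held the lowest of the 4 untreated values in 8 of the 9 members and in 34.3% of all genes. The 9 values come from the same 4 arrays and are not independent of each other.

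*PSMB9* had the largest of these differences, with 10.39 and 10.59 in the control and 9.09 and 9.84 in the knockdown clones. TET1-KD1 was the lower of the knockdown clones and both were below the control clones, but the difference of -1.03 (SE 0.407, 95% interval from -2.01 to -0.04) did not pass after adjustment (limma adjusted p = 0.593). *TAPBP* was low in TET1-KD1 alone, at 10.98 against 12.01 in TET1-KD2 and 12.14 and 12.02 in the control clones. *HLA-E* was lower in both knockdown clones, at 13.46 and 13.50 against 13.93 and 13.90, a difference of -0.43 (SE 0.18, adjusted p = 0.61). *HLA-B*, *HLA-C* and *B2M* differed by -0.34, -0.34 and -0.33, and *TAP1*, *TAP2* and *NLRC5* by -0.17, -0.07 and -0.13.

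**Figure D2:**
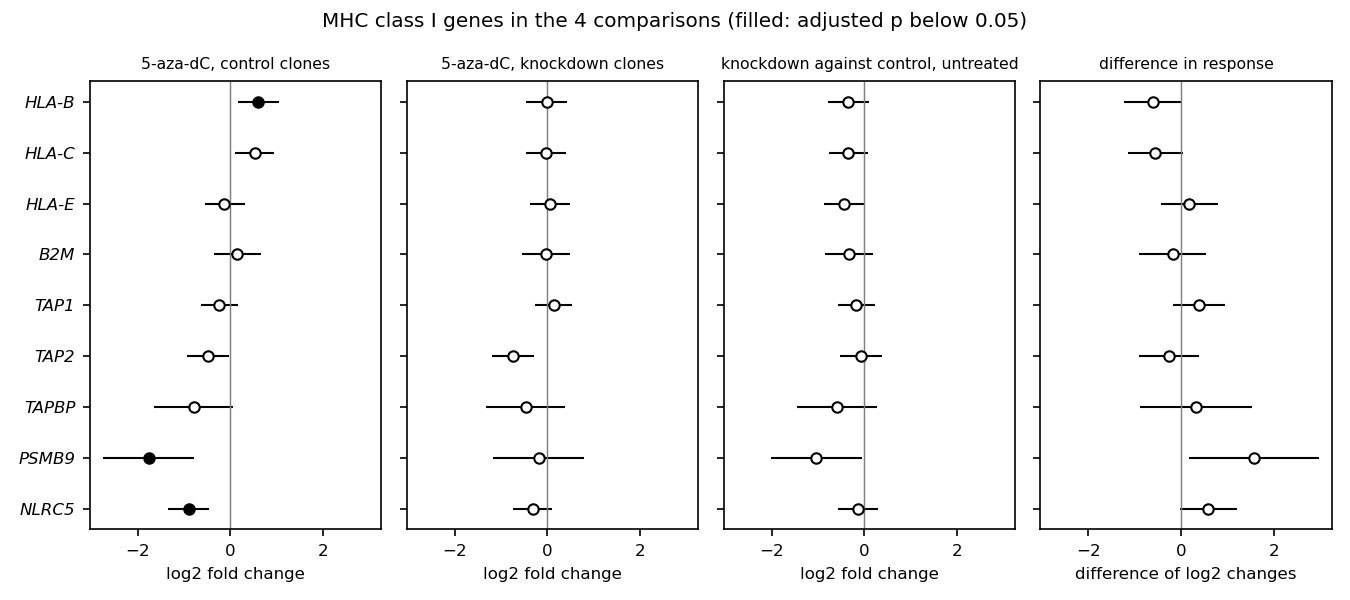
Log2 fold change (x axis) of each member with its 95% interval in the 4 comparisons, from 1 limma fit over all 8 arrays, with filled symbols at an adjusted p below 0.05. The 3 filled symbols (*HLA-B*, *PSMB9* and *NLRC5*) are all in the response of the control clones, none of them stays filled after the robust GC correction, and the 9 symbols of the untreated comparison all lie below 0.

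The difference in response, knockdown minus control clones, was tested as an interaction over all 8 arrays. No member was called by limma, against 5.27% of all genes, with 1 member at an unadjusted p below 0.05. The same interaction with each probe's own variance, which the methods do not name, called none. *PSMB9* had the largest estimate, 1.58 (SE 0.576, limma adjusted p = 0.161). Its change with treatment was -1.92 and -1.60 in CONT1 and CONT2 and -0.31 and -0.06 in TET1-KD1 and TET1-KD2, and with the clone as a block it passed (adjusted p = 0.0453). With the GC trend removed as well as the block it did not pass (0.97, adjusted p = 0.0881), nor with the trend removed without the block (0.97 by the ordinary and 1.06 by the robust loess). *HLA-B* and *HLA-C* had estimates of -0.61 (95% interval from -1.23 to 0.01) and -0.56 (interval from -1.15 to 0.04). *HLA-B* changed by 0.46 and 0.75 in the control clones and by 0.04 and -0.06 in the knockdown clones. *NLRC5* had an estimate of 0.58 (interval from -0.03 to 1.20), and the other members lay between -0.26 and 0.38. Calls in the control clones and none in the knockdown clones are thus not shown to differ for any member by the fit without the block.

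Probes to 1 gene did not always change alike in the control clones. Of the 15 member probes tested, 1 was called up and 5 down, where 19.2% of all probes were called up and 22.6% down. *HLA-B* has 3 probes, with changes of 0.60, -0.07 and -0.83, the last of them called down (SE 0.205, adjusted p = 0.0207). *HLA-C* has 2, with 0.53 and 0.09. The second *HLA-C* probe lies at chr6:31321644-31321703 (hg19, minus strand), where it overlaps the *HLA-B* probes at chr6:31321663-31321722 and chr6:31321653-31321712, and not near the other *HLA-C* probe at chr6:31236617-31236676. The 3 overlapping probes share 41 positions and differ at 1 of them. That base is shown in capitals in a stretch of 30 bases at chr6:31321672-31321701. By its coordinates, the gene name of the probe named *HLA-C* is uncertain.
HLA-B probe, change 0.60: agtcaattcctggaaGttgagagagcaaat
HLA-B probe, change -0.07: agtcaattcctggaaTttgagagagcaaat
Probe named HLA-C, change 0.09: agtcaattcctggaaGttgagagagcaaat

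The middle probe carries G16T against the first, counted from 1 at the 5′ end of the stretch, and the third has the same letters there as the first. In the knockdown clones the 3 changes were -0.01, 0.02 and 0.01. The first probe thus stood apart in the control clones, where slide and treatment cannot be told apart, and the changes of the other 2 there (-0.07, SE 0.174, and 0.09, SE 0.177) differed by less than their errors. Which transcript each probe measured was not tested, and the reference tables are of another build, so exons were not assigned to the probes.

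The GC content of the probes is given because over all tested probes it moved with the change in the control clones. Those with 33.3% to 36.7% GC had a median change of 0.13 in both CONT1 and CONT2, and those with 53.3% to 56.7% GC had -0.51 and -0.50. In TET1-KD1 and TET1-KD2 the same bins had medians of -0.06 and -0.12 and of -0.04 and -0.02. The brightest *HLA-B*, *HLA-C* and *TAP2* probes, with changes of 0.60, 0.53 and -0.48 in the control clones, are 35% GC. Those of *PSMB9* and *NLRC5*, with changes of -1.76 and -0.90, are 55% GC. The *HLA-B* probes with changes of 0.60, -0.07 and -0.83 are 35%, 33.3% and 55% GC. In the knockdown clones these 3 probes had changes of -0.01, 0.02 and 0.28, and none passed. The part of GC content in the members' changes was not tested beyond the corrected fits given above.

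**Figure D3:**
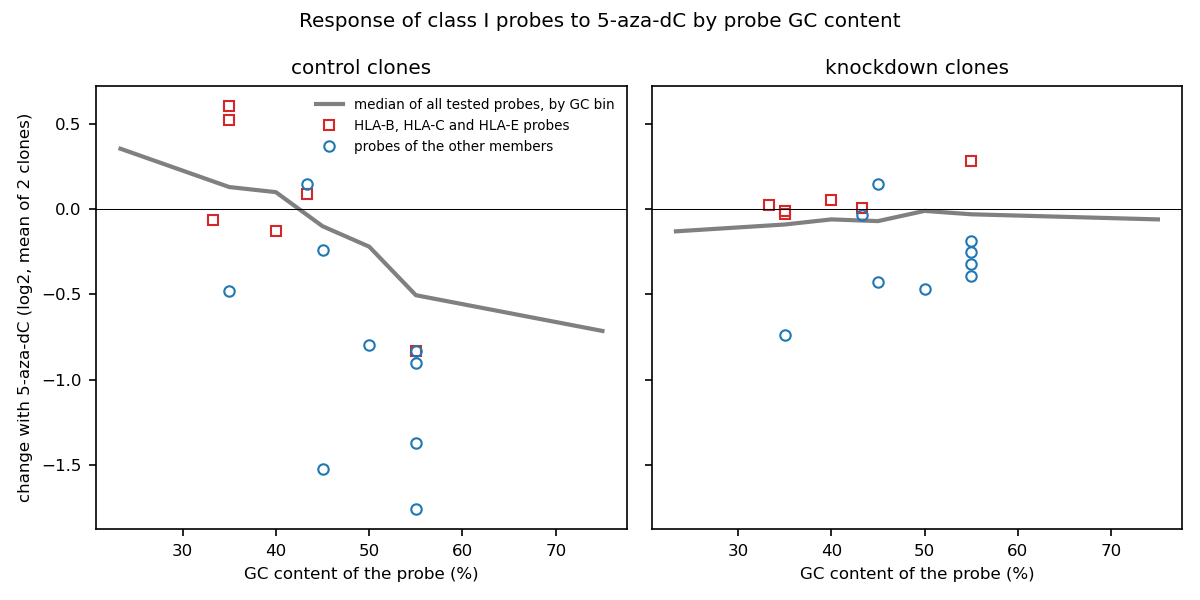
Change with 5-aza-dC (log2, mean of 2 clones, y axis) against the GC content of the probe (percent, x axis) for tested probes of *HLA-B*, *HLA-C* and *HLA-E* (squares) and of the other members (circles), in control clones (left) and knockdown clones (right); the grey line joins the medians of all tested probes in 7 GC bins. In the control clones the members' probes at 55% GC lie between -1.76 and -0.83 and those at 33.3% and 35% GC between -0.48 and 0.60 (*HLA-B*, which turns to -0.09 on the spike-in scale), and in the knockdown clones the line is nearly flat.

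For *TAPBP*, 3 tested probes all had lower values in the treated control clones (-0.79, -1.38 and -0.83), and the one with -1.38 passed (adjusted p = 0.0227). A second *TAP2* probe was above background in the untreated control clones and below it on both treated control arrays, so its fitted change gives no measured fold. The probes of *HLA-E*, *B2M*, *TAP1* and *PSMB9* were the only ones of their genes, with 10 replicate spots for *B2M*.

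The other genes of the pathway were counted from a list of 36, of which 33 could be tested. In the control clones 4 rose and 6 fell, in the knockdown clones 1 rose and 4 fell, and in the untreated comparison none was called (1 at an unadjusted p below 0.05). Over all genes 20.5% were called up and 21.3% down in the control clones, and 9.45% up and 3.09% down in the knockdown clones. The median log2 fold changes of the list were -0.31, -0.13 and -0.05, against -0.05, -0.06 and 0.01 over all genes. Those called in the control clones were *PSMB8*, *NFYC*, *MICA* and *MICB* up and *NFYA*, *NFKB1*, *IRF2*, *RFXAP*, *PSMB5* and *IFNGR1* down, of which *NFYC*, *RFXAP*, *PSMB5* and *IFNGR1* are named after their values were seen. The probes of *NFYC* disagreed. Its brightest probe had a change of 0.79 (limma adjusted p = 0.018), another was called down at -1.36 (limma adjusted p = 0.0013), and the others had -0.03 and -0.20 and did not pass. *CIITA*, the class II transactivator, was below background on all arrays, *TAPBPL* was above background on 2 arrays of different groups, and *PSMB6* lacked a value on 1 array.

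*PSMB8*, the immunoproteasome subunit encoded beside *PSMB9* and *TAP1*, was the only pathway gene called up in both kinds of clone. In CONT1 and CONT2 it read 4.13 and 3.48 without and 5.32 and 6.14 with treatment. In TET1-KD1 and TET1-KD2 it read 2.72 and 3.80 without and 5.11 and 6.40 with treatment. All untreated arrays were below background and all treated arrays above it. It was at least 2.66-fold higher after treatment in the control clones (limma adjusted p = 0.0381) and at least 2.56-fold higher in the knockdown clones (limma adjusted p = 0.0419), taking the lowest signal above background as the untreated level. *PSMB8* entered the test only through the treated arrays, and both p-values rest on untreated values below background. In the knockdown clones *PSMB9* changed by -0.18. *PSMB10*, the remaining catalytic subunit of the immunoproteasome, changed by 0.32 and -0.25 and did not pass in either.

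*ERAP2*, which trims peptides in the endoplasmic reticulum, fell in the knockdown clones from 5.40 and 6.48 to 4.34 and 4.35 (log2 fold change -1.60, limma adjusted p = 0.0335). It changed by 0.06 in the control clones, and the difference in response did not pass (adjusted p = 0.103). Among transcription factors *NFYA*, *NFYB* and *NFKB1* fell in the knockdown clones. *NFYA*, a subunit of the factor that binds CCAAT, fell by 1.00 there (adjusted p = 0.0297) and by 1.13 in the control clones (adjusted p = 0.00724). *NFKB1*, which encodes the p50 subunit of NF-kB, fell by 0.81 (adjusted p = 0.0244) and by 0.86 (adjusted p = 0.00729). Both were lower after treatment in all 4 clones, but a second *NFYA* probe had changes of -0.12 and 0.20 and did not pass. *NFYB*, the partner of NFYA, fell by 1.13 in the knockdown clones (adjusted p = 0.0398) and changed by 0.31 in the control clones. Its difference in response did not pass (-1.44, limma adjusted p = 0.0758).

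*IRF1*, through which interferon gamma acts on class I genes, did not pass in any comparison. It read 7.99 and 8.08 without and 7.23 and 7.39 with treatment in the control clones, and 7.52 and 8.07 without and 7.03 and 7.78 with treatment in the knockdown clones. Of the NKG2D ligands, stress-induced class I-like molecules, 2 of 5 rose in the control clones, where 20.5% of all genes were called up; these were *MICA* (0.65, adjusted p = 0.0385) and *MICB* (0.90, adjusted p = 0.0341), named after their values were seen. A second *MICA* probe fell by 1.00 (adjusted p = 0.0159) and a second *MICB* probe had a change of -0.24, so the probes of each gene disagreed. None of the 5 passed in the knockdown clones.

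**Figure D4:**
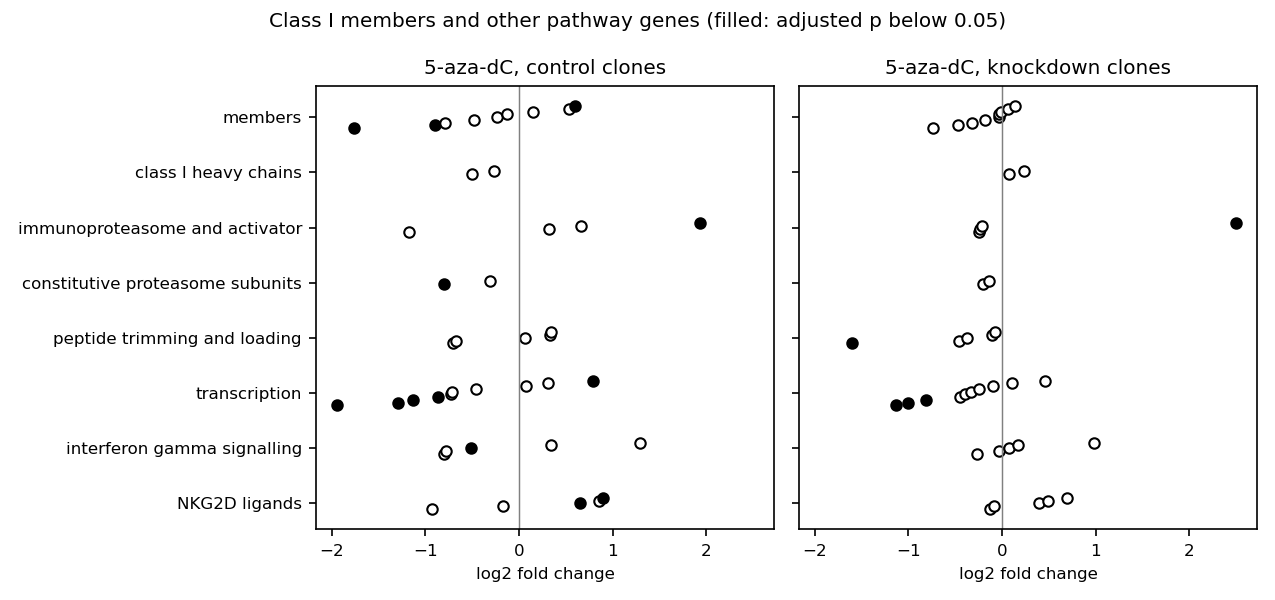
Log2 fold change with 5-aza-dC (x axis) of the 9 members and 33 other pathway genes, by list, in control clones (left) and knockdown clones (right), 1 symbol per gene, filled at an adjusted p below 0.05. In the knockdown clones *PSMB8* stands at 2.50, a fitted value from untreated arrays below background, and the 9 members lie between -0.74 and 0.14.

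The mean pattern of the members over the 8 arrays, as z scores of their brightest probes, was highest in the untreated control clones (0.72 and 0.79) and lowest in TET1-KD1, at -0.57 without and -0.93 with treatment. TET1-KD2 read 0.09 and -0.19, and the treated control clones -0.28 and 0.36. *TAPBP* (r = 0.90) and *HLA-E* (r = 0.85) lay closest to this mean and *NLRC5* (r = 0.18) farthest, so 1 mean describes the members unevenly. Of 12190 other named genes above background on all arrays, the 5 with the highest Pearson correlation over the 8 arrays were *MADD* (0.968), *SYT3* (0.966), *EFNA3* (0.965), *PDE3B* (0.964) and *SLC25A39* (0.960). The 8 points share 4 clones and 2 slides, and the ranking is a description only.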

How the data were processed

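Total RNA of 4 HCT116 clones, without and with 5-aza-dC, was hybridized to 8 one-color arrays (SurePrint G3 Human GE, probes annotated on hg19). The authors deposited spot intensity values from Feature Extraction 10.7.3.1, background-subtracted and not scaled between arrays. The deposited value table of the series holds the same intensity values, rounded, on a linear and uncentred scale, and was used as an alternative. Intensities were divided by each array's 75th percentile, multiplied by the geometric mean of these percentiles, floored at 1 and put on a log2 scale. Outlier-flagged spots were left out and replicate spots averaged. A probe was tested when it was above background (at least 0.5 of its spots) on both arrays of at least 1 group, which left 27287 probes. Limma 3.58.1 in R 4.3.3 fitted the 4 group means over all 8 arrays (4 residual degrees of freedom), with Benjamini-Hochberg adjustment over all probes tested, and intervals are 95%. A gene was called by its brightest tested probe at an adjusted p below 0.05. The number of arrays limits the precision.

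The text names every member, the pathway genes called in the knockdown clones or in the difference in response, *PSMB8*, *PSMB10*, *IRF1*, *TET1*, and the 5 genes most like the members' mean. Some items first listed for the pathway were not analysed here and are not in its counts. The members and lists were chosen with earlier results of these data known. Same-numbered arrays of a kind are the same clone, as the titles give, so the clone was used as a block in an alternative fit for the 5-aza-dC responses; same-clone deviations from the group means correlated at 0.198 in the control and 0.476 in the knockdown clones. Other alternatives were background correction, scaling, filters, the variance used, probe averaging, spike-in scale, probe GC trend (loess, span 0.5) and leaving out each array; the robust GC trend was added after seeing the data. The fitting functions were tested on simulated data. Promoters came from RefSeq tables (GRCh38.p14), and plots were drawn with matplotlib 3.10.9.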

Additional observations from a re-analysis of the deposited data

Results flagged for a closer look

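The response of *IRF2*, an interferon regulatory factor from the pathway list, differed between the kinds of clone by an interaction test over the 8 arrays, with an estimate of 2.40 (SE 0.413, limma adjusted p = 0.0319). It read 4.81 and 5.06 in CONT1 and CONT2 without treatment, 3.37 and 2.64 with treatment, 3.85 and 4.32 in TET1-KD1 and TET1-KD2 without treatment, and 4.65 and 4.45 with treatment. The probe entered the test only through the untreated control and treated knockdown arrays, which were above background. All treated control and untreated knockdown arrays were below it. The estimate of 2.40 and its p therefore rest on values below background and give no measured size of the difference. Taking the lowest signal above background as the level of those arrays, *IRF2* was at least 1.36-fold lower after treatment in the control clones. By the same rule it was at least 1.11-fold higher after treatment in the knockdown clones. Both treated control arrays are on the second slide, and its part in this value was not tested.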

How the results depend on the processing

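In the control clones 3 members were called; 6 were called with the replicate block (clone) and on the spike-in scale, 5 with the 4 arrays of the groups compared alone, 1 with a minimum of 2-fold, and 0 by the methods' t-test or with the GC trend removed by the robust loess. The 3 were 1 up and 2 down, against 2 and 1 with normexp, 0 and 2 with quantile normalization, 0 and 3 with the planned GC trend (0 and 4 with the block) and 0 and 6 on the spike-in scale. Leaving out each array in turn gave between 0 and 4, with none left without untreated CONT1 and 1 left without any 1 of the other 3 control arrays; the lone array is then assumed to vary like the other groups. In the knockdown clones, where none was called, 1 was called with normexp, the offset of 50, the spike-in scale, the replicate block or the planned GC trend, and 2 with that trend and the block; leaving out arrays gave 0 throughout. For the difference in response the block called 1 (*PSMB9*) and changed no other call of a member beyond those of *HLA-C*, *TAP2* and *TAPBP*, and leaving out arrays gave 0, as it did for the untreated comparison, for which no paired analysis was possible because the clone numbers name different clones. The *HLA-B* response of the control clones reversed to -0.09 on the spike-in scale and to -0.10 as the mean of its 3 probes. The median over all probes in that comparison was -0.08, and -0.27 on the spike-in scale, -0.20 with quantile normalization and -0.23 with the planned GC trend. All probes called there numbered 11402. There were 13746 with the replicate block, 12634 on the spike-in scale, 12599 with the 4 arrays alone, 7462 at a minimum of 2-fold and 4163 by the methods' t-test. In the knockdown clones 3220 probes were called, and 6206 with the planned GC trend, 8644 with that trend and the block, 1687 with the 4 arrays alone, 1191 with probes above background on all 8 arrays, 0 by the methods' t-test and as few as 1764 when an array was left out. In the untreated comparison 4 were called, and between 0 and 34 when an array was left out. For the difference in response 1522 were called, and 829 with normexp, 843 with probes averaged, 715 without the filter, 800 and 743 with the robust and planned GC trends, 234 with the latter and the block, and between 47 and 1245 when an array was left out. Leaving out saturated spots changed nothing, since there were none. The cause of these differences was not tested.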
